A study of Mus musculus with 4 samples.

Results

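A set of 30 genes of sterol and fatty acid synthesis was followed in lung tumour RNA. They were chosen by symbol from a list of these textbook pathways, and all 30 of the 30 were found among the 21420 genes used. Of these, 20 belong to sterol synthesis and its control and 10 to fatty acid synthesis. RNA was sequenced from cells depleted of CD45-positive leukocytes with magnetic beads, taken from lung tumours 10 weeks after intranasal Ad-Cre, an adenovirus that delivers Cre recombinase to the airway. KL mice (2 libraries) carried Cre-dependent tumour alleles, among them Lkb1fl/fl, so that Cre removes Lkb1 in infected cells. KL25 mice (2 libraries) carried the same alleles and were also Usp25-/-, a genotype that is not restricted to infected cells. Usp25 encodes a deubiquitinase. All 4 libraries thus shared these tumour alleles and the virus, and the comparison asked what loss of Usp25 changed in addition. No age or sex of the mice is given in the labels.

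Cells make cholesterol from acetyl-CoA through mevalonate, squalene and lanosterol, and make fatty acids from the same acetyl-CoA through malonyl-CoA. SREBP transcription factors, encoded by Srebf1 and Srebf2, switch on the genes of both routes when membrane sterol is low: SCAP then escorts the precursor to the Golgi, where it is cleaved, whereas INSIG proteins hold it in the endoplasmic reticulum. In the lung, alveolar type 2 cells use fatty acid synthesis for surfactant lipid. LKB1 is the kinase that activates AMPK, which inhibits acetyl-CoA carboxylase.

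No member differed between KL25 and KL past the test, and neither did any of the 12476 genes tested (0%). The lowest unadjusted p in limma among the 29 members tested was 0.0871, for Fdps, with an adjusted p of 0.942. Acacb was under the level needed for the test. Each KL25 library was higher than each KL library for 7 members (Fdps, Sqle, Cyp51, Acss2, Fasn, Scd2 and Elovl5) and lower for 3 (Srebf2, Acacb and Scd1). The same held for 19.1% and 15.0% of all genes tested, so neither count stands apart from the table as a whole. In the other 20 the groups overlapped. The KL mice differed from each other by more than the KL25 mice did for 28 of 30 genes, against 66.5% of all genes tested.

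Values are FPKM, a read density scaled to transcript length and library size, and differences are KL25 minus KL in mean log2(FPKM + 1), which understates the change of low genes. Pairs of values give replicate 1 and then replicate 2. Usp25 was at 2.65 and 1.71 FPKM in the KL25 mice and 38.5 and 16.6 FPKM in the KL mice. Stk11, the gene of Lkb1, stayed at 16.9 to 23.9 FPKM in all 4 libraries. KL replicate 1 stood apart. Over the 12476 genes tested its correlation with the other libraries, across genes, was 0.874 to 0.885, against 0.933 to 0.967 among the others. Its 6 neutrophil markers summed to 40086 FPKM, against 707 to 1968 FPKM elsewhere. Its 10 alveolar type 2 markers summed to 1582 FPKM, against 3922 to 5027 FPKM elsewhere. Most of this gap came from Sftpc, at 339 FPKM against 1376 to 2596 FPKM, and Sftpb, at 865 FPKM against 1139 to 3284 FPKM. KL replicate 1 was also the lowest library for Sftpd, Abca3 and Lamp3, but not for Sftpa1, Slc34a2, Napsa, Etv5 and Lpcat1. Leukocyte RNA was present in every library despite the CD45- label: Ptprc, which encodes CD45, was at 43.3 to 123 FPKM. The 8 leukocyte markers summed to 1406 and 1561 FPKM in the KL25 mice and 2504 and 2079 FPKM in the KL mice, with 4 of 8 lower in both KL25 libraries. The 8 pan-epithelial markers summed to 3620 and 1346 FPKM in the KL25 mice and 935 and 785 FPKM in the KL mice, with 7 of 8 higher in both KL25 libraries. Adipoq, an adipocyte hormone, was at most 0.309 FPKM, but the 6 adipocyte markers found summed to 253 to 407 FPKM. Fabp4 made up most of that sum, at 244 to 403 FPKM. Hepatocyte markers summed to at most 2.36 FPKM. The part of these cell mixtures in any value that follows was not tested. In bulk RNA, fewer cells of a type and less RNA per cell cannot be told apart.

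Promoters are shown first because SREBP acts through them. RefSeq windows of GRCm38.p6, from 250 bases before to 50 bases after a start site, were matched for 24 of 30 members. None was matched for Fdps, Fdft1, Sqle, Scd1, Scd2 and Stard4. Searches covered both strands for TCACNCCAC, a core of the sterol regulatory element, CACGTG, an E-box that SREBP-1 can also bind, CCAAT, the NF-Y box, and GGGCGG, a GC box bound by Sp1. NF-Y and Sp1 are known partners of SREBP. Matches of different motifs, or of CCAAT on opposite strands, may overlap. Only these exact letters were counted, so a window without TCACNCCAC may still hold a sterol element that departs from it. Hmgcs1 is printed as the only matched member holding TCACNCCAC, Cyp51, Fasn and Elovl5 as members with both KL25 libraries higher, and Srebf2 as one with both lower. Acss2, also higher, and Acacb, also lower, have windows with 1 CCAAT box each that are not printed. Capitals mark TCACNCCAC and CCAAT on either strand, where CCAAT on the opposite strand reads ATTGG.
Hmgcs1, chr13:119690101-119690400, plus strand: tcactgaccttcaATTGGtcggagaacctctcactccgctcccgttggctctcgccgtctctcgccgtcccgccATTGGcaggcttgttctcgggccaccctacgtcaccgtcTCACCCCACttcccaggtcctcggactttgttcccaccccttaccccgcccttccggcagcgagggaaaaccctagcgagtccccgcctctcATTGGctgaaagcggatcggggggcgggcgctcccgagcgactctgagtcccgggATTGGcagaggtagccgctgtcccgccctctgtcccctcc
Cyp51, chr5:4104648-4104947, minus strand: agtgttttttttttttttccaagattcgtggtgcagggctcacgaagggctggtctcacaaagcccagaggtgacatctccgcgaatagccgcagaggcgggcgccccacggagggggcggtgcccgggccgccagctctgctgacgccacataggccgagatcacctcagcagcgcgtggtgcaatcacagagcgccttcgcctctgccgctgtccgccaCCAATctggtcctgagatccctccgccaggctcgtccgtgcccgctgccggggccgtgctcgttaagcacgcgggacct
Fasn, chr11:120824498-120824797, minus strand: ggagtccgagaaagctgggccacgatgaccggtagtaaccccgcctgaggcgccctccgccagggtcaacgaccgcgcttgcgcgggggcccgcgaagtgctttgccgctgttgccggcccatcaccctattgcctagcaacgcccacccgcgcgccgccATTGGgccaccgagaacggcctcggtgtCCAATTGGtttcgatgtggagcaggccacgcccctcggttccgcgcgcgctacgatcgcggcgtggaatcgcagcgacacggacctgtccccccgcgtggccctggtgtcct
Elovl5, chr9:77917115-77917414, plus strand: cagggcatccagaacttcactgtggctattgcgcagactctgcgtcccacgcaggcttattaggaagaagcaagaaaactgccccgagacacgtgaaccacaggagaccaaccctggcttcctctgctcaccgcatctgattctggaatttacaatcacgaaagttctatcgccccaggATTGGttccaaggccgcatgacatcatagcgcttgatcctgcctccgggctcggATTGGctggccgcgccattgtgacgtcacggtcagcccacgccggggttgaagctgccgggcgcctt
Srebf2, chr15:82147019-82147318, plus strand: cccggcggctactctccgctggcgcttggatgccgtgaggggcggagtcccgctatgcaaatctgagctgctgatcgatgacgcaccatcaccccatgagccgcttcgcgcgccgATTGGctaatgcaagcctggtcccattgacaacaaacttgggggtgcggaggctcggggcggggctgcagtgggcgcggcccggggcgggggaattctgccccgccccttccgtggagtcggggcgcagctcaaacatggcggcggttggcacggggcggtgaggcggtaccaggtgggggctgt
The Hmgcs1 window has its sterol element core as TCACCCCAC, with its first base 137 before the start, and 4 CCAAT boxes. Cyp51 and Srebf2 have 1 CCAAT box each, Elovl5 has 2 and Fasn has 3, of which a pair overlap on opposite strands.

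TCACNCCAC occurred in 4.17% of the matched members, 1 of 24, and in 1.44% of the 27025 genes with a window. CCAAT occurred in 87.5% of the matched members, 21 of 24, against 41.1% of all genes and 42.3% of the 9269 tested genes with a window. GGGCGG occurred in 75% of the members, against 38.2% of all genes and 67.6% of tested genes. CACGTG occurred in 25% of the members, against 8.09% of all genes and 11.6% of tested genes. These shares are descriptions of exact letters in a fixed window, and sterol elements that depart from TCACNCCAC are not in them. CCAAT was found among members with KL25 higher, with KL25 lower and with overlapping groups.

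**Figure D1:**
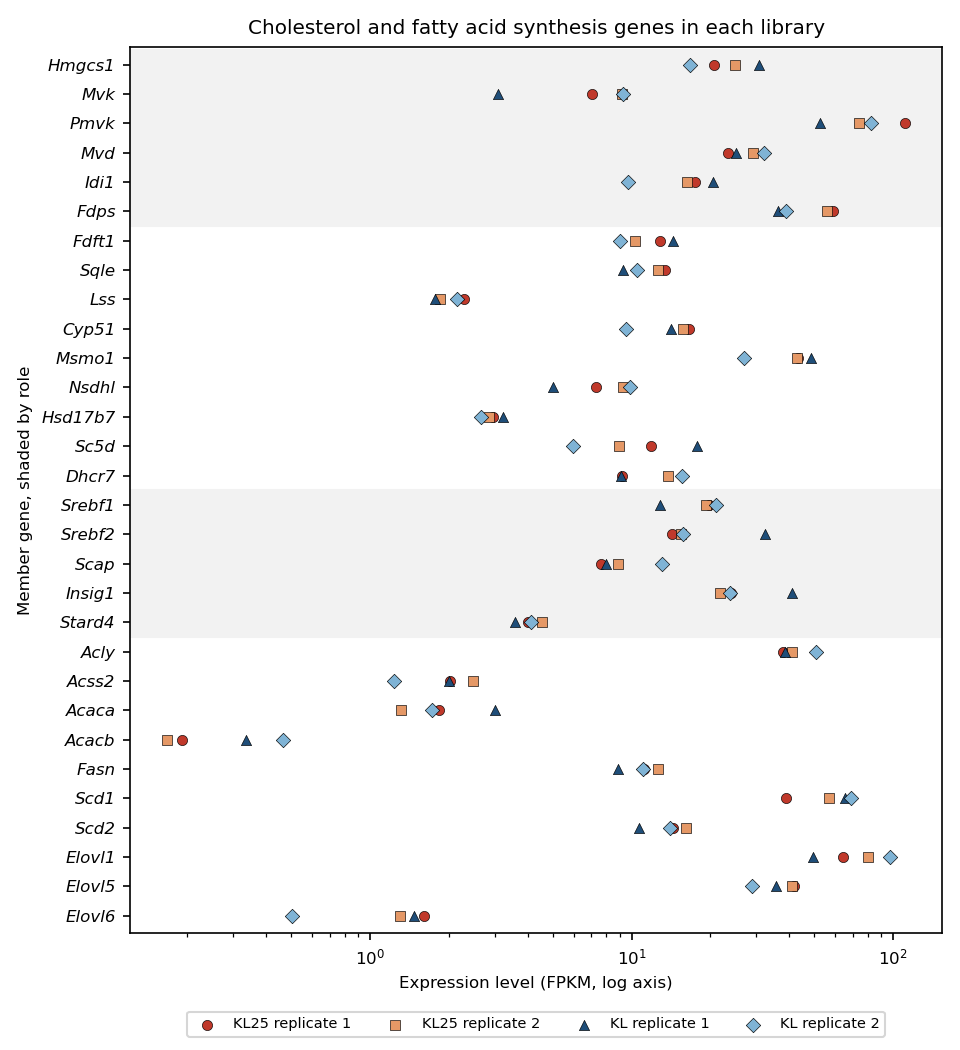
FPKM of each of the 30 members in the 4 libraries on a log axis, 1 point per library, ordered by role from mevalonate to fatty acid genes. The points of KL replicate 1 lie at an edge of the range for 21 of 30 genes, and Acacb is the only member below 1 FPKM in every library.

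The mevalonate branch turns acetyl-CoA into isoprenoid units. Hmgcs1, which makes HMG-CoA, was at 20.7 and 24.8 FPKM in the KL25 mice and 30.7 and 16.7 FPKM in the KL mice. Its KL libraries thus enclosed both KL25 libraries, and the log2 difference was -0.0018 (95% interval -0.98 to 0.97). Fdps, which joins isoprenoid units into farnesyl diphosphate, was at 59.0 and 55.9 FPKM in the KL25 mice and 36.3 and 38.9 FPKM in the KL mice. Each pair was close and the groups did not overlap. Means were 57.4 ± 2.19 FPKM (SD, n = 2) in KL25 and 37.6 ± 1.81 FPKM (SD, n = 2) in KL, a ratio of 1.53. The log2 difference was 0.60 (SE 0.284, 95% interval -0.12 to 1.32), limma adjusted p = 0.942. Fdps spans positions 89093588 to 89101959 of chromosome 3 on the minus strand (GRCm38, GENCODE), and the small genes Gm43738 and Gm22935 overlap it on the same strand.

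Mvk, mevalonate kinase, was at 7.04 and 9.21 FPKM in the KL25 mice and 3.09 and 9.30 FPKM in the KL mice. Only KL replicate 1 was low. Idi1, the isopentenyl diphosphate isomerase, was at 17.5 and 16.3 FPKM in the KL25 mice and 20.5 and 9.71 FPKM in the KL mice. Here KL replicate 1 was the highest of the 4 libraries and KL replicate 2 the lowest. Pmvk, phosphomevalonate kinase, ranged from 52.7 to 111 FPKM and Mvd, the decarboxylase that follows it, from 23.4 to 32.2 FPKM, each with overlapping groups. Over the 6 mevalonate genes 4 differences were positive and 2 negative, with a median of 0.35.

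The next 9 enzymes carry farnesyl diphosphate through squalene and lanosterol to cholesterol. Fdft1, squalene synthase, was at 12.8 and 10.3 FPKM in the KL25 mice and 14.4 and 8.995 FPKM in the KL mice, so the KL libraries lay on either side of KL25. Sqle, the squalene epoxidase that is a second control point of the pathway, was at 13.4 and 12.6 FPKM in the KL25 mice and 9.29 and 10.4 FPKM in the KL mice. Each KL25 mouse was higher than each KL mouse. The log2 difference was 0.37 (SE 0.271, 95% interval -0.32 to 1.06), limma adjusted p = 0.942, and the ratio of means was 1.32. Cyp51, which demethylates lanosterol, was at 16.5 and 15.8 FPKM in the KL25 mice and 14.2 and 9.52 FPKM in the KL mice. Each KL25 mouse was again higher, with KL replicate 2 the lowest. Its log2 difference was 0.44 (SE 0.314, 95% interval -0.36 to 1.24), limma adjusted p = 0.942. It was 0.71 when KL replicate 1 was left out and 0.18 when KL replicate 2 was. Cyp51 shares its locus with Akap9 on the other strand, and Fdft1 with Ctsb, Srebf1 with Rai1, Elovl1 with Cdc20 and Acss2 with Gss and Ggt7. The strand setting of the counting is not stated, so reads of such pairs may not have been told apart.

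Msmo1, which oxidises a methyl group of the sterol ring, was at 43.2 and 43.0 FPKM in the KL25 mice and 48.7 and 26.8 FPKM in the KL mice. Sc5d, a sterol desaturase, was at 11.8 and 8.92 FPKM in the KL25 mice and 17.8 and 5.98 FPKM in the KL mice, a ratio of 2.98 between the KL mice. In both genes the KL mice enclosed the KL25 mice. Lss, lanosterol synthase, ranged from 1.76 to 2.28 FPKM and Hsd17b7, a keto-reductase of the pathway, from 2.65 to 3.23 FPKM. Nsdhl, which removes a carboxyl group left by Msmo1, ranged from 5.01 to 9.84 FPKM, and Dhcr7, a terminal reductase, from 9.10 to 15.6 FPKM. All 4 had overlapping groups. The median log2 difference of the 9 genes was 0.06, with 6 positive and 3 negative.

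The sterol sensing and transport genes had a median log2 difference of -0.29, with 2 of 5 positive. Srebf2, whose product drives sterol genes above all, was at 14.3 and 15.4 FPKM in the KL25 mice and 32.3 and 15.7 FPKM in the KL mice. Both KL25 libraries were lower, but KL replicate 2 exceeded them by little. Srebf2 lies at positions 82147181 to 82205379 of chromosome 15, plus strand (GRCm38). The log2 difference was -0.57 (SE 0.411, 95% interval -1.62 to 0.47), limma adjusted p = 0.942, and without KL replicate 1 it was -0.07 and without KL replicate 2 -1.07. Insig1, the retention protein and itself a known SREBP target, was at 23.98 and 21.8 FPKM in the KL25 mice and 41.1 and 23.7 FPKM in the KL mice. KL replicate 1 alone was high, and without it the difference was -0.05 in place of -0.43, and without KL replicate 2 it was -0.82. Srebf1, whose product favours fatty acid genes, was at 19.8 and 19.3 FPKM in the KL25 mice and 12.9 and 20.9 FPKM in the KL mice, with KL replicate 1 alone low. Scap, the escort, was at 7.64 and 8.84 FPKM in the KL25 mice and 8.01 and 13.0 FPKM in the KL mice, with KL replicate 2 alone high. Stard4, a sterol carrier, ranged from 3.59 to 4.56 FPKM with overlapping groups.

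The fatty acid enzymes were split between higher and lower values. Acly, which makes cytosolic acetyl-CoA from citrate, was at 38.0 and 41.2 FPKM in the KL25 mice and 38.6 and 50.6 FPKM in the KL mice. Acss2, which makes it from acetate, was at 2.02 and 2.47 FPKM in the KL25 mice and 2.00 and 1.23 FPKM in the KL mice, so the groups were separated by a narrow margin. Acaca, the cytosolic acetyl-CoA carboxylase, was at 1.83 and 1.31 FPKM in the KL25 mice and 3.003 and 1.73 FPKM in the KL mice, with KL replicate 1 alone high. Acacb, the carboxylase at the mitochondrial surface, was at 0.190 and 0.167 FPKM in the KL25 mice and 0.336 and 0.464 FPKM in the KL mice. The KL25 mice were lower, but the gene was under the level needed for the test. Fasn, fatty acid synthase, was at 11.2 and 12.6 FPKM in the KL25 mice and 8.83 and 11.0 FPKM in the KL mice. The groups were again apart, with KL25 higher. The log2 difference of Fasn was 0.24 (SE 0.284, 95% interval -0.48 to 0.96), limma adjusted p = 0.942. It was 0.10 when KL replicate 1 was left out and 0.39 when KL replicate 2 was. Acss2, at 0.32, moved to 0.54 and 0.11 in the same fits.

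The stearoyl-CoA desaturases lay in opposite directions. Scd1 was at 38.9 and 56.7 FPKM in the KL25 mice and 65.3 and 69.0 FPKM in the KL mice, so both KL25 libraries were lower, KL25 replicate 1 most of all. The log2 difference was -0.51 (SE 0.330, 95% interval -1.34 to 0.33), limma adjusted p = 0.942, and it was -0.24 when KL25 replicate 1 was left out and -0.77 when KL25 replicate 2 was. Scd2 was at 14.4 and 16.2 FPKM in the KL25 mice and 10.7 and 14.03 FPKM in the KL mice, so both KL25 libraries were higher. Its log2 difference of 0.30 was 0.12 when KL replicate 1 was left out and 0.48 when KL replicate 2 was. These are close paralogs, near each other on chromosome 19, and the counting may have split reads between them. Elovl5, an elongase of polyunsaturated chains, was at 41.8 and 41.1 FPKM in the KL25 mice and 35.7 and 29.0 FPKM in the KL mice. The KL25 values were higher in each mouse, with a ratio of means of 1.28 and a log2 difference of 0.36 (SE 0.292), limma adjusted p = 0.942. Without KL replicate 1 this difference was 0.50, and without KL replicate 2 it was 0.21. Elovl1, an elongase of very long chains, ranged from 49.6 to 97.7 FPKM, and Elovl6, which extends palmitate, from 0.501 to 1.61 FPKM, both with overlapping groups.

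**Figure D2:**
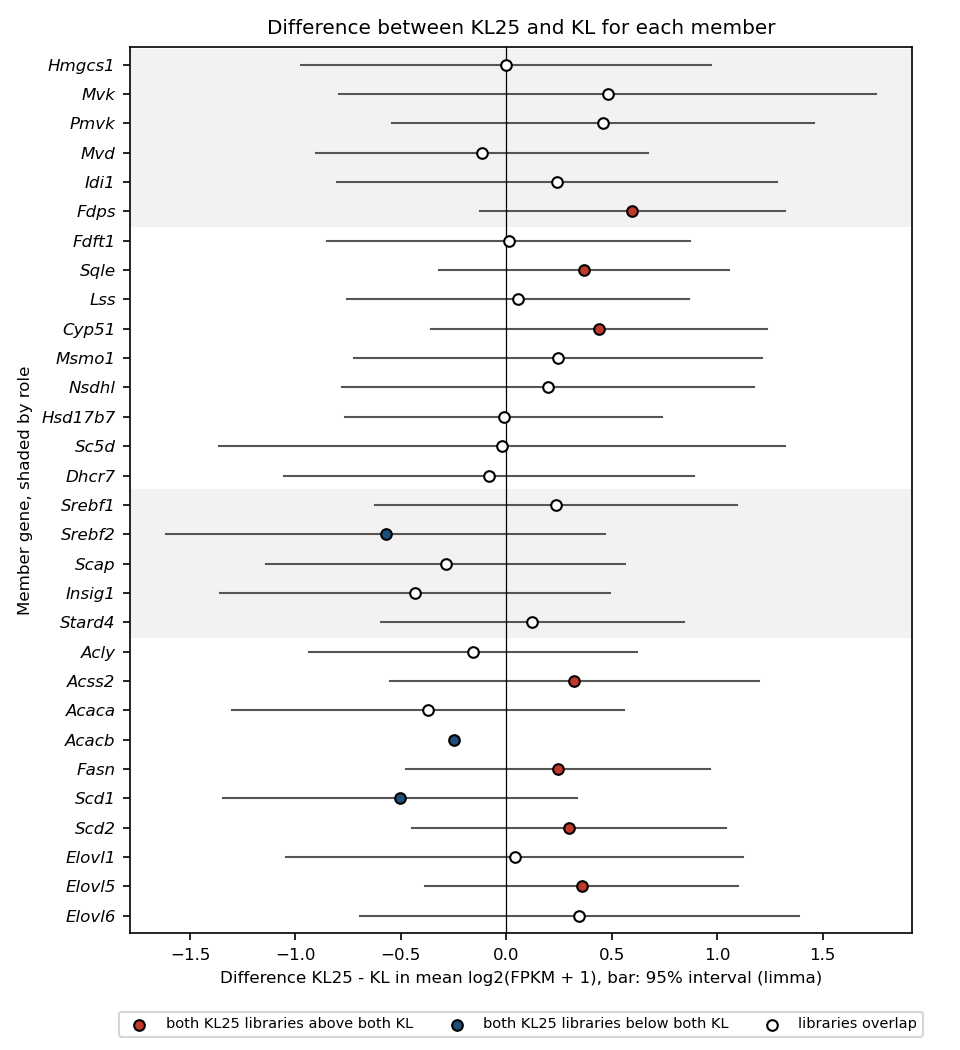
Difference KL25 minus KL in mean log2(FPKM + 1) for each member, with the 95% interval of the limma fit where the gene was tested. Every interval of the 29 genes tested includes 0, from a lowest bound of -1.62 for Srebf2 to a highest of 1.75 for Mvk.

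Of the 30 members 29 passed the level filter, which asked a mean of 1 FPKM or more in KL25 or in KL. Differences were positive for 18 of 30 and negative for 12, with a median of 0.09, 0.09 over the 20 sterol members and 0.14 over the 10 fatty acid members. Without KL25 replicate 1 the sterol and fatty acid medians were 0.18 and 0.23, and without KL25 replicate 2 they were 0.15 and 0.02. Without KL replicate 1 they were 0.07 and 0.0027, and without KL replicate 2 they were 0.10 and 0.07. Over all 12476 genes tested 53.1% were positive, with a median of 0.03. None of the members passed an adjusted p of 0.05 in limma, and none had an unadjusted p under 0.05. Of all genes tested 0% passed in either direction after adjustment, and unadjusted 2.16% were higher and 1.07% lower in KL25. Usp25 itself was not called: its log2 difference was -3.07, with unadjusted p = 0.00103 and adjusted p = 0.942 in limma. In the authors' deposited table the adjusted p of Usp25 was 0.017. With 2 libraries per group, the lack of a call in limma thus does not show that a gene was unchanged. The median member's 95% interval reached 0.86 to either side of its difference on the log2 scale, against 0.92 over all genes tested. An exact two-sided permutation test of 2 libraries against 2 cannot give a p below 0.333.

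Libraries of the groups did not overlap for 7 members with KL25 higher and 3 with KL25 lower. Both counts were near the shares over all genes tested, 19.1% and 15.0%. With every library scaled to equal totals only Fdps, Sqle, Cyp51 and Elovl5, 4 members, had both KL25 libraries higher, and the 3 with both lower were Insig1, Acacb and Scd1, without Srebf2. With quantile normalisation the 3 lower were Insig1, Srebf2 and Scd1. As deposited, in the fatty acid branch 4 of 10 genes had both KL25 libraries higher and 2 had both lower. In the sterol branch 3 of 20 had both higher and 1 had both lower. Of the 20 members with overlapping groups, 16 changed sign when some 1 library was left out.

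The KL25 libraries were closer to each other than the KL libraries were for 28 of 30 members, against 66.5% of all genes tested. The exceptions were Lss and Scd1. KL replicate 1 was the highest library for 9 members and the lowest for 12, 21 of 30 in all, against 68.5% of all genes tested. The 9 were Hmgcs1, Idi1, Fdft1, Msmo1, Hsd17b7, Sc5d, Srebf2, Insig1 and Acaca, and among the 12 were Mvk, Pmvk, Nsdhl, Dhcr7, Srebf1 and Elovl1. The KL libraries lay on either side of both KL25 libraries for 11 of 30, against 26.7% of all genes tested, 10 of the 11 being sterol genes. Ratios of KL replicate 1 to KL replicate 2 ran from 0.333 for Mvk to 2.98 for Sc5d. At different steps of the same route the KL mice were thus ordered oppositely: for Hmgcs1 the ratio was 1.83 and for Mvk, further along, 0.333.

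**Figure D3:**
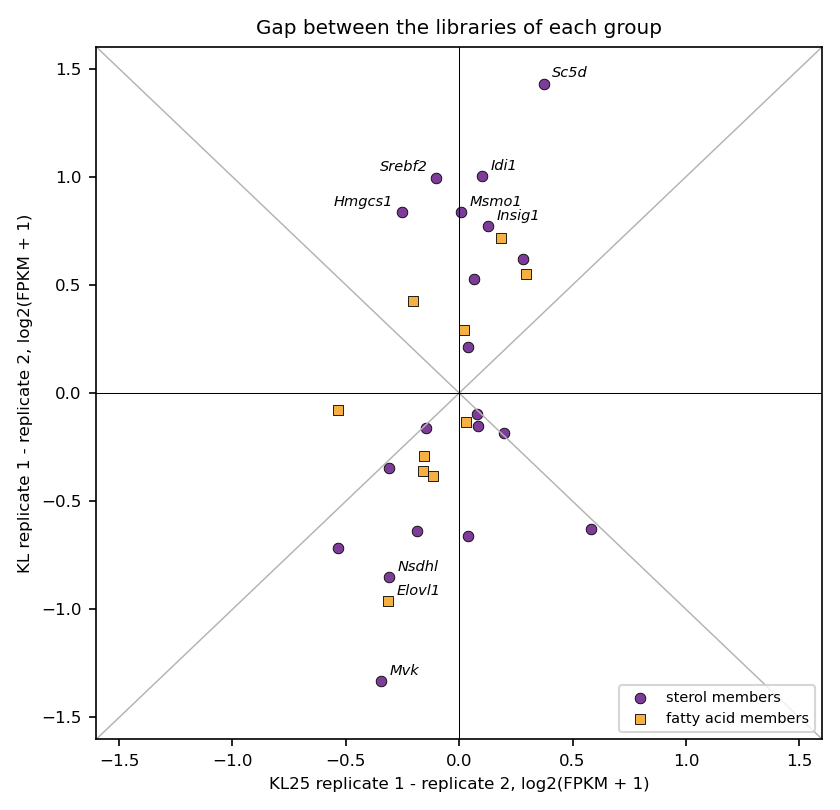
Difference between replicates 1 and 2 in log2(FPKM + 1) within KL25 (horizontal) and within KL (vertical) for the 30 members, with diagonals where both gaps are equal in size. Points for 28 of 30 genes lie nearer the vertical axis, with Sc5d at the top and Mvk at the bottom.

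All 30 members together gave 642 and 651 FPKM in the KL25 mice and 605 and 634 FPKM in the KL mice, with both KL25 sums slightly higher. As shares of each library's FPKM the groups overlapped, at 0.114% and 0.124% in KL25 and 0.113% and 0.116% in KL. The 20 sterol members summed to 428 and 398 FPKM in the KL25 mice and 390 and 359 FPKM in the KL mice, and the 10 fatty acid members to 214 and 253 FPKM in the KL25 mice and 216 and 275 FPKM in the KL mice. Leaving out KL replicate 1, the library with the high neutrophil sum, gave log2 differences of 0.74 for Idi1 and 0.66 for Msmo1, and leaving out KL replicate 2 turned both negative, to -0.26 and -0.17. Mvk went the other way, at -0.18 and 1.15 in these fits.

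In the authors' deposited table none of the 30 members had an adjusted p under 0.05, where 0.122% of 14770 genes with an adjusted p did. An unadjusted p under 0.05 was held by 2 of 30 members in the authors' deposited table, against 4.09% of 21420 genes. Fdps had, in the authors' deposited table, a log2 fold change of 0.59 (standard error 0.247), p = 0.017 and adjusted p = 0.871. Acacb had -1.17 (standard error 0.564) and p = 0.0382 in the authors' deposited table, on a mean normalized count of 28.1. The member means in the authors' deposited table reached 3140 normalized counts, for Scd1.

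The rest of the pathway gave no call either. Of 99 further lipid genes in 8 lists 87 passed the level filter and 0 passed the adjusted threshold in limma. Of all 12476 genes tested 0% passed it in either direction. The KL25 libraries were both higher for 11 of the 87 lipid genes and lower for 14. The shares over all genes tested, 19.1% higher and 15.0% lower, are the background for these and for the counts of each list, which cover genes that passed. Among 10 other enzymes of the sterol and isoprenoid route 4 had both KL25 libraries higher and none lower, with a median of 0.16, and of 0.29 without KL replicate 1. Tm7sf2, a sterol reductase, was at 6.02 and 6.66 FPKM in the KL25 mice and 1.52 and 4.87 FPKM in the KL mice.

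Among 14 genes of sterol uptake and trafficking, 13 of which passed the level filter, 6 had both KL25 libraries lower and none had both higher, against 15.0% and 19.1% of all genes tested. The median was -0.19, and -0.31 without KL replicate 1. Mylip, the ligase that marks the LDL receptor for breakdown, was at 7.50 and 7.85 FPKM in the KL25 mice and 17.9 and 11.4 FPKM in the KL mice (unadjusted p = 0.0519 in limma, adjusted p = 0.942). Gramd1b, a sterol transfer protein, was at 3.23 and 2.15 FPKM in the KL25 mice and 6.26 and 4.07 FPKM in the KL mice. The leukocyte marker sum was also lower in both KL25 libraries. The macrophage marker sums overlapped, at 1170 and 1041 FPKM in the KL25 mice and 1091 and 1724 FPKM in the KL mice. The part of either cell type in these values was not tested. Among 10 genes of SREBP processing 2 had both KL25 libraries higher and 2 lower, with a median of 0.07, and of 0.02 without KL replicate 1. Insig2, the second retention protein, was at 17.0 and 13.5 FPKM in the KL25 mice and 10.4 and 10.7 FPKM in the KL mice. Of 10 LXR and sterol efflux genes, 8 passing, none of the 8 had separated groups. The median was -0.17, and -0.32 without KL replicate 1. Apoe, a lipid carrier, ranged from 253 to 758 FPKM.

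Among 19 further genes of fatty acid synthesis and desaturation, 13 passing, 10 differences were positive and 3 negative. The median was 0.33, and it was -0.08 without KL replicate 1. Me1, which supplies NADPH for synthesis, was at 28.5 and 15.0 FPKM in the KL25 mice and 10.6 and 7.49 FPKM in the KL mice, with unadjusted p = 0.0364 and adjusted p = 0.942 in limma. The KL25 mice were higher, and so were their pan-epithelial marker sums, whose part in this was not tested. Hacd3, a dehydratase of chain elongation, was at 16.9 and 17.1 FPKM in the KL25 mice and 11.1 and 13.6 FPKM in the KL mice. Of 15 fatty acid oxidation genes, 14 passing, 2 had both KL25 libraries higher and 1 lower, with a median of 0.17 and, without KL replicate 1, of -0.13. Acadm, a dehydrogenase of medium chains, was at 36.0 and 33.3 FPKM in the KL25 mice and 19.0 and 32.5 FPKM in the KL mice. Of 15 glycerolipid genes, 14 passing, 4 had both KL25 libraries lower and none higher, with a median of -0.03, and of -0.10 without KL replicate 1. Pcyt1a, which controls phosphatidylcholine synthesis, was at 6.91 and 15.1 FPKM in the KL25 mice and 19.4 and 16.6 FPKM in the KL mice. Of 6 AMPK subunit genes, 5 passing, the median was 0.04, and 0.08 without KL replicate 1. Prkab1 was the only one of the 5 with separated groups, at 25.8 and 26.3 FPKM in the KL25 mice and 20.5 and 23.0 FPKM in the KL mice.

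**Figure D4:**
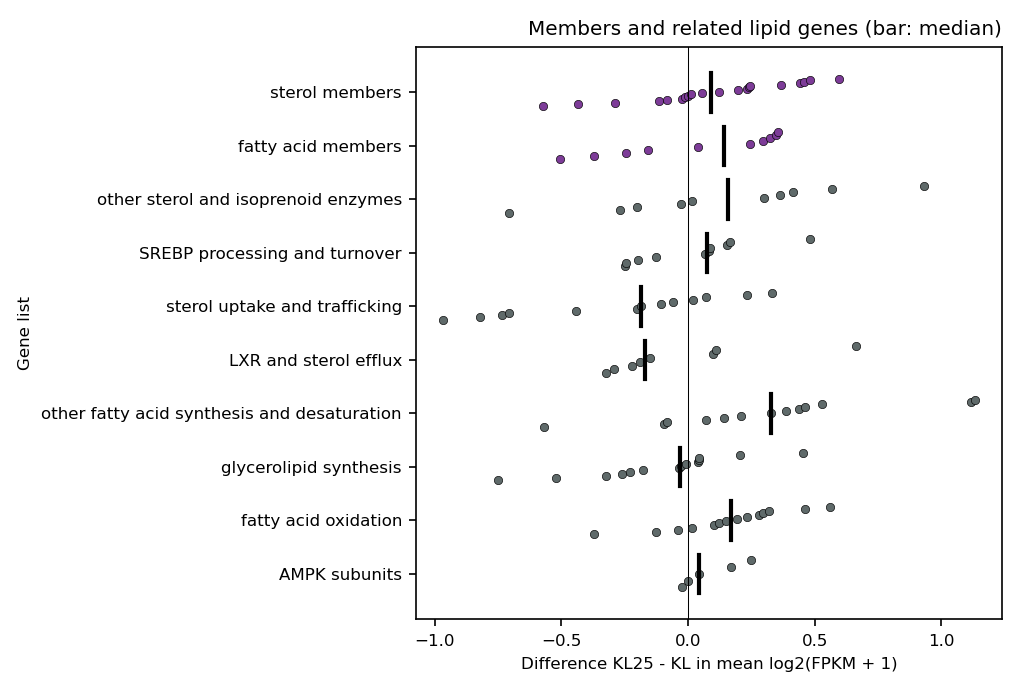
Difference KL25 minus KL in mean log2(FPKM + 1) for the 30 members (upper rows) and the tested genes of 8 further lipid lists, 1 point per gene, with the median as a bar. Medians run from -0.19 for sterol uptake and trafficking to 0.33 for other fatty acid synthesis and desaturation.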

How the data were processed

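The 4 libraries, 2 from KL and 2 from KL25 mice, were made from poly(A) RNA with a stranded kit. Per the labels' protocols, cutadapt trimmed the reads, which were aligned to GRCm38, and HTSeq gave the counts of each gene. The submitters' processing notes name GRCm39 beside GRCm38. Which aligner, versions and strand setting were used is, beyond this, not given in the sources used here.

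Per gene and library the authors deposited 1 value, with no unit in the header. These deposited values were taken as FPKM, since they are not whole and total 526632 to 565613. Per the file headers, the authors' comparison adds a mean normalized count, a signal over all libraries. It also holds the authors' log2 fold change, the standard error of that log2 value, a test score and, unadjusted and adjusted, a p-value. The authors' adjusted p-value is NA for 6653 genes. Where a gene was detected in 1 library alone, 100% of its deposited means were whole multiples of 1 step, within 0.01 of it. This gave relative depths of 0.853 and 0.823 in KL25 and 1.30 and 1.09 in KL. Counts per gene could not be had from FPKM, so no counting interval is given. Rows whose names had become dates (25 of 21445, 0.117% of FPKM) were dropped.

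A linear model with limma 3.58.1, in R 4.3.3, and its variance trend was fitted to log2(FPKM + 1) for 12476 genes whose mean reached 1 FPKM in KL25 or in KL. It was two-sided, used Benjamini-Hochberg adjustment at 0.05 and was tested on simulated data. The design text gives 2 mice per group, and p-values measure the spread between those mice. Members with groups that did not overlap, with the lowest p or at control steps have a value for every library, as do up to 4 genes of each further list at 5 FPKM or more. Mvk, Idi1, Msmo1 and Sc5d were added after their values were seen. The members and lists were chosen with earlier results of these data known. Alternatives covered pseudocount, filter, scaling, weights, replicate number and each library. The fitted weights were equal within each group, 1.78 in KL25 and 0.561 in KL. They thus did not weight KL replicate 1 below KL replicate 2. Coordinates come from GENCODE for GRCm38. Some alleles and genes are not reported here by name.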

Additional observations from a re-analysis of the deposited data

How the results depend on the processing

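Of 120 values from 10 members under 12 alternatives, 0 changed sign, which non-overlap largely fixes. The filter, weight and replicate block alternatives left every difference as it was, so they could not change a sign. With all 4 libraries kept, no member passed the threshold, but neither did any gene of the whole table. Among these alternatives Acacb was tested only without the level filter. No gene of the whole table was called with the replicate number as a block (0 genes), and it changed no other call. Across the genes tested, the deviation of replicate 1 from its group mean in KL25 correlated at 0.152 with that in KL. No label ties the replicate numbers. Members with both KL25 libraries higher numbered 7, and 8 to 15 when 1 library was left out. With every library scaled to equal totals they numbered 4 (Fdps, Sqle, Cyp51 and Elovl5), against 17.9% of all genes tested. Members with both lower numbered 3, and 5 to 11 when 1 library was left out. Fewer libraries separate more easily by construction: over all genes tested the shares were then 31.1% to 43.8% higher and 22.6% to 37.7% lower. Without KL replicate 1 the member counts were 14 (higher) and 11 (lower), and without KL replicate 2 they were 15 and 11. Hmgcs1 and Fdft1, both near 0, changed sign with the scaling or pseudocount. With a library left out its group has 1 sample, assumed to vary like the other. FPKM carry no depth per gene, and Acacb, at under 1 FPKM, is limited most.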
